A study of Homo sapiens with 2 samples.

Results

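The mammalian circadian clock is described here by 10 genes in T24/R cells: the period genes PER1, PER2 and PER3, the cryptochrome genes CRY1 and CRY2, the activator genes CLOCK and BMAL1, the nuclear receptor genes NR1D1 and NR1D2, and the output gene DBP. They were listed by name, with no filter on their values but with earlier results of these data known. Their symbols were matched to the Ensembl identifiers of both count tables. All 10 were found among 58884 listed genes (BMAL1 is written ARNTL in the older annotation), and 9 of them had at least 30 counts in at least 1 library, the minimum set for a comparison. DBP did not reach it.

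RNA was sequenced from T24/R, an adherent human line labelled as epithelial and from the urinary bladder, after 6 h in 1600 nM THZ1 or in DMSO as the vehicle control. THZ1 is a covalent inhibitor of CDK7, which phosphorylates RNA polymerase II as part of TFIIH, and it also hits the related kinases CDK12 and CDK13. Both groups were grown in the same serum-containing RPMI 1640 medium with penicillin, streptomycin and L-glutamine. Each group had 1 library, so differences lack a replicate check and p-values are not given. The labels name no synchronisation of the cells and no time of day of harvest. With 1 time of sampling, rhythm and phase were not measured. The name of the line is all that the labels give on how T24/R was derived.

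The clock is a feedback loop of transcription. The proteins CLOCK and BMAL1 pair and bind E-box sequences in the PER, CRY, NR1D1, NR1D2 and DBP genes, and the PER and CRY proteins in turn inhibit that pair. NR1D1 and NR1D2 encode the REV-ERB nuclear receptors, which repress BMAL1 through a sequence called the RORE, while DBP activates genes through D-box sequences.

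Start-site regions of some members are printed below, each with a match to an E-box, its variant or a RORE. The windows of PER3 and DBP, which hold no such match, are not printed. Those of CLOCK and the other windows of CRY2, NR1D2 and BMAL1 are also left out. The regions come from the RefSeq promoter table on GRCh38.p14, where the 10 members matched 15 windows in all. Each line gives the 250 bases before an annotated start, 5′ to 3′ on the strand of the gene, with E-boxes (CACGTG), the E-box variant (CACGTT) and ROREs in capitals, on either strand, so that AACGTG is the variant read backwards.
PER1 (chr17:8152405-8152654, minus strand): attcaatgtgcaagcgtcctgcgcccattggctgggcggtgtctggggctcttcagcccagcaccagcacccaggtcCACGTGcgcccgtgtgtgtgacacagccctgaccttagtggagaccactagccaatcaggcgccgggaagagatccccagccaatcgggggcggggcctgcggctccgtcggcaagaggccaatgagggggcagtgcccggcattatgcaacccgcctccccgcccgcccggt
PER2 (chr2:238288611-238288860, minus strand): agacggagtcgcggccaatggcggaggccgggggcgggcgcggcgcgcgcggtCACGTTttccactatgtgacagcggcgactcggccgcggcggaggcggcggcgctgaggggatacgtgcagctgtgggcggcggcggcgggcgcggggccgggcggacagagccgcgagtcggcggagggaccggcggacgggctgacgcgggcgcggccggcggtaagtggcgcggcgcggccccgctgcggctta
CRY1 (chr12:107093550-107093799, minus strand): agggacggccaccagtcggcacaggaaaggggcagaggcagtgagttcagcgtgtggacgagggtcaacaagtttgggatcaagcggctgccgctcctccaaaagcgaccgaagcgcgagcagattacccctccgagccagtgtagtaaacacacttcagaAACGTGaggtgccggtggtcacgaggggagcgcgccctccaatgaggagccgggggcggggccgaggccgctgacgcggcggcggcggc
CRY2, the downstream of its starts (chr11:45847225-45847474, plus strand): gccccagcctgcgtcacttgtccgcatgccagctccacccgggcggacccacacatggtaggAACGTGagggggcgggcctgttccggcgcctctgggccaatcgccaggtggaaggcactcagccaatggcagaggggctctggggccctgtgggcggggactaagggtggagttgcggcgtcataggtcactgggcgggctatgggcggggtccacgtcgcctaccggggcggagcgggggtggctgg
NR1D1 (chr17:40100590-40100839, minus strand): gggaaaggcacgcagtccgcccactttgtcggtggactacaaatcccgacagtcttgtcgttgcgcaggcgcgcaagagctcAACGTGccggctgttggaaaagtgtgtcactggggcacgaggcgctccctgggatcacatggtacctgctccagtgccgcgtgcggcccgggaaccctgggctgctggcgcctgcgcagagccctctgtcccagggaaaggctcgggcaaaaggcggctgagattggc
NR1D2, the downstream of its starts (chr3:23945871-23946120, plus strand): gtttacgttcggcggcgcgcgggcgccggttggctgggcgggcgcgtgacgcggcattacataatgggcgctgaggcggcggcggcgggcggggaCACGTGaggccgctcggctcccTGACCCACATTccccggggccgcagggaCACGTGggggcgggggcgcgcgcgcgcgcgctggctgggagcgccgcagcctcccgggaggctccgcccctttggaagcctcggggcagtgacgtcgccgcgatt
BMAL1, 30 bases around the RORE just after a start (chr11:13277807-13277836, plus strand): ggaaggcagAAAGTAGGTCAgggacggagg

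Windows of 300 bases (250 before the start and 50 after it) were searched on both strands. An E-box was found for 2 members, PER1 (beginning 173 bases before the start) and NR1D2 (155 and 105 bases before), against 7.26% of 35116 windows of all genes. The variant was found for 5 members, PER2, CRY1, CRY2, NR1D1 and CLOCK, against 5.34% of all windows. A RORE was found for BMAL1, CLOCK and NR1D2, against 0.316% of all windows. A D-box (TTANGTAA) was found for PER2, PER3 and NR1D2, against 2.18%, and its letters overlap none of the sequences in capitals. The full CRE (TGACGTCA) was found for 0 members, against 1.85%, and its core TGACG alone for 5 members (PER2, CRY1, CRY2, CLOCK and NR1D2), against 24.6%. A TATA box (TATAAA) was found for CRY2 alone among the members, against 11.5%. The percentages are shares of single windows, whereas some members had 2 windows and so 2 places to match. Of the 15 member windows, 2 held the E-box, 5 the variant, 3 a RORE, 3 a D-box, 0 the full CRE, 7 its core and 1 a TATA box. These matches are descriptions of the letters in the windows, and members with the E-box or its variant are found both among the genes with the lowest ratios reported below (NR1D1, PER2) and among those with the highest (CRY1, CLOCK).

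The DMSO library held 18445831 counts and the THZ1 library 18313827. Libraries were scaled by TMM, a trimmed mean of gene ratios, levels are given as CPM (the usual unit of that name, with the TMM effective size in place of the total count), and genes are called lower or higher in THZ1 from a 2-fold ratio upwards, provided that the 95% counting interval leaves out 1. Among 12457 tested genes, 21.3% were lower and 9.7% were higher. The share of counts from mitochondrially encoded mRNAs was 6.6% in DMSO and 14.9% in THZ1. Of 14 epithelial and urothelial markers, 3 reached the minimum (KRT18 with 696 and 494 counts, KRT8 with 77 and 100, and TP63 with 61 and 34), and 7, among them CDH1, EPCAM and PPARG, were at 3 counts or fewer in both libraries. Of 6 mesenchymal genes, VIM (63269 and 84532 counts), FN1 (11244 and 10248) and CDH2 (3948 and 3738) were high, while COL1A1 (30 and 20), COL3A1 (5 and 9) and COL1A2 (0 in both) were low. The markers thus bore out the epithelial label only in part, and the cells are called by the name of the line. In bulk RNA, fewer cells with a transcript and less of it per cell cannot be told apart.

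After 6 h of THZ1, 2 of the 9 tested clock genes passed the rule as lower, 0 as higher and 7 as neither. They were NR1D1, 2.83-fold lower, and PER2, 2.63-fold lower. That is 22.2% of the tested members, close to the 21.3% of all tested genes. The median log2 ratio of the 9 was −0.59, beside −0.03 for all tested genes, with a range from −1.50 to 0.28. The activator genes CLOCK and BMAL1, with CRY1 and NR1D2, had ratios within 1.22-fold of 1, and the ratios of PER1, PER3 and CRY2 lay 1.5-fold to 1.94-fold below 1, short of the rule.

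**Figure D1:**
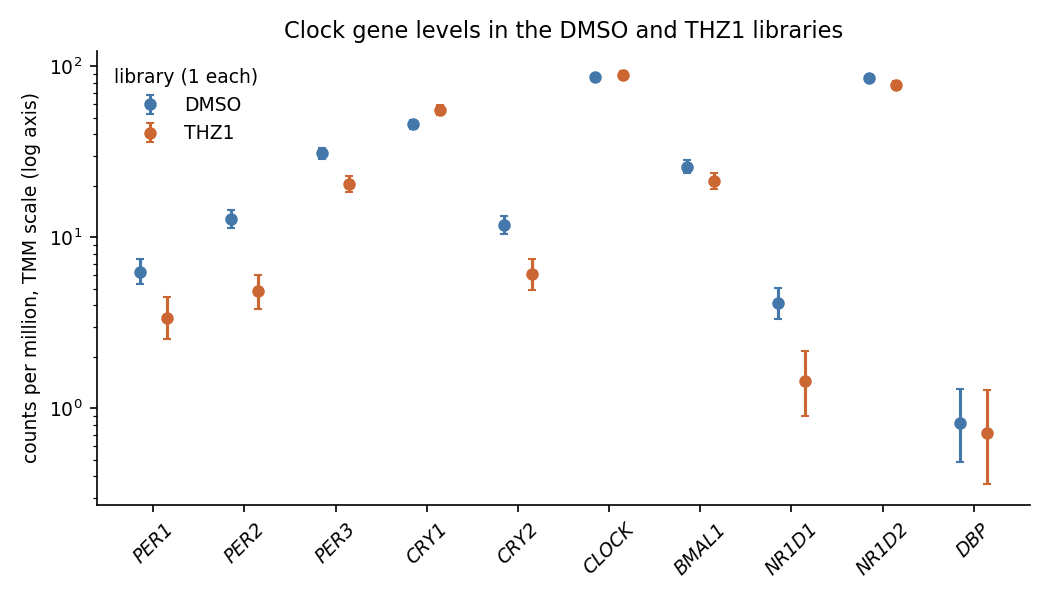
Level of each of the 10 clock genes in the DMSO library (blue) and the THZ1 library (orange), as CPM on the TMM scale on a log axis; bars are exact 95% Poisson intervals and cover counting error only. The intervals of the libraries overlap for CLOCK, NR1D2 and DBP, almost touch for BMAL1 (from 23.9 in DMSO and up to 23.8 in THZ1), and are apart for the other members, with CRY1 alone among these higher in THZ1.

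The period genes encode proteins that act in one complex with the cryptochromes. PER2 had 282 counts in DMSO and 74 in THZ1, that is 12.8 and 4.83 CPM. Its log2 ratio was −1.40 (−1.79 to −1.03), so that even the bound nearest to 0 lay past 2-fold. PER1, the period gene best known as an early response to cAMP and glucocorticoid signals, had 139 and 52 counts, or 6.3 and 3.39 CPM. Its ratio of −0.88 (−1.38 to −0.42) was under 2-fold and was not called. PER3 was the most counted of the 3 in each library, with 683 and 316 counts, or 31 and 20.6 CPM. Its ratio was −0.59 (−0.78 to −0.39). All 3 period genes thus had intervals below 0 on this scaling, and PER2 alone passed the rule.

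Ratios of 2 genes within the same pair of libraries do not depend on how the libraries are scaled. PER3 kept 1.76 times as much of its DMSO level as PER2 did (1.31 to 2.39). PER1 stood between them, at 1.42 times PER2 (0.925 to 2.19) and 0.809 times PER3 (0.561 to 1.15), and counting error did not separate it from either. PER2 made up 25.5% of the period gene counts in DMSO (23% to 28.2%) and 16.7% in THZ1 (13.4% to 20.6%), by exact Clopper-Pearson intervals. PER3 made up 61.9% (58.9% to 64.7%) and 71.5% (67% to 75.7%), and PER1 12.6% (10.7% to 14.7%) and 11.8% (8.91% to 15.1%). The mix of period transcripts in the THZ1 library held less PER2 and more PER3.

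The cryptochromes CRY1 and CRY2 are the proteins that directly inhibit the CLOCK and BMAL1 pair. CRY1 had 1011 counts in DMSO and 855 in THZ1, or 45.9 and 55.8 CPM. Its log2 ratio of 0.28 (0.15 to 0.42) was the highest among the members. CRY2 had 261 and 93 counts, or 11.8 and 6.07 CPM. Its ratio was −0.96 (−1.32 to −0.62), which is 1.94-fold lower and just short of the 2-fold rule. These paralogs differed beyond counting error, since CRY1 kept 2.37 times as much of its level as CRY2 (1.83 to 3.09). CRY1 accounted for 79.5% of cryptochrome counts in DMSO (77.2% to 81.7%) and 90.2% in THZ1 (88.1% to 92%).

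NR1D1 and NR1D2 encode REV-ERB alpha and beta. NR1D1 had 91 counts in DMSO and 22 in THZ1, or 4.13 and 1.44 CPM. Its log2 ratio was −1.50 (−2.27 to −0.84), the lowest of the members and the widest interval among those tested. NR1D2 had 1890 and 1199 counts, or 85.7 and 78.3 CPM. Its ratio was −0.13 (−0.24 to −0.03), within 2-fold. NR1D2 kept 2.62 times as much of its level as NR1D1 (1.62 to 4.42). NR1D1 made up 4.59% of the counts of the pair in DMSO (3.71% to 5.61%) and 1.8% in THZ1 (1.13% to 2.72%).

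The last 1081 bases of NR1D1 lie across from THRA, a thyroid hormone receptor gene on the opposite strand, and the strand setting of the counting is not given in the sources used here. THRA had 143 and 35 counts and a log2 ratio of −1.49 (−2.08 to −0.96), and the ratio of NR1D1 was 0.988 times that of THRA (0.517 to 1.86). Reads in the shared stretch cannot be told apart without strand, so the value of NR1D1 is uncertain. NR1D2 overlaps NKIRAS1 on the opposite strand over 1332 bases, and the ratio of NKIRAS1 was −0.44 (−0.60 to −0.28). The value of NR1D2 is uncertain for the same reason. No overlapping gene of PER1, PER2, PER3 or CRY1 had more than 9 counts in a library, and CRY2 overlaps no annotated gene. Among these, the protein-coding ENSG00000263620 lies on the same strand as PER1 over 5691 bases and had 0 counts in both libraries. How reads in that stretch were assigned is not known here, so the counts of PER1 are uncertain too.

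**Figure D2:**
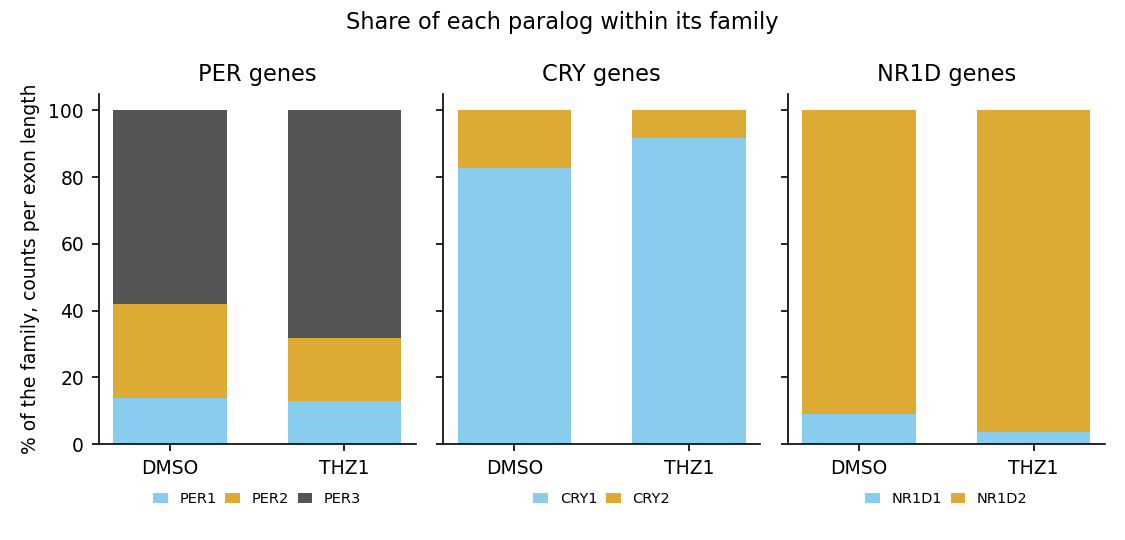
Share of each paralog in the summed level of its family, in percent of counts per merged exon length, in the DMSO and THZ1 libraries (1 each, stacked to 100%). PER2 takes 28.2% of the period genes in DMSO and 18.8% in THZ1, CRY2 17.4% and 8.16% of the cryptochromes, and NR1D1 9.18% and 3.71% of the REV-ERB genes.

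On the TMM scale the activators differed little between the libraries. With scaling to total counts the log2 ratios were −0.48 for CLOCK and −0.80 for BMAL1. With scaling to mitochondrially encoded mRNAs they were −1.66 and −1.97, and both genes were called lower. The values that follow are on the TMM scale. CLOCK had 1914 counts in DMSO and 1360 in THZ1, or 86.8 and 88.8 CPM. Its log2 ratio was 0.03 (−0.07 to 0.13). BMAL1 had 572 and 327 counts, or 25.9 and 21.3 CPM. Its ratio was −0.28 (−0.48 to −0.08), and CLOCK kept 1.24 times as much of its level as BMAL1 (1.06 to 1.45). CLOCK lies across from TMEM165 on the opposite strand over 25495 bases of gene span, and TMEM165 had a ratio of −0.49 (−0.63 to −0.36). Without the strand setting, the value of CLOCK is uncertain as well.

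Each activator has a paralog that can stand in for it. NPAS2, the paralog of CLOCK, had 295 and 289 counts and a log2 ratio of 0.50 (0.26 to 0.73). It kept 1.38 times as much of its level as CLOCK (1.15 to 1.65). BMAL2 had 2606 and 2737 counts and a ratio of 0.60 (0.52 to 0.67). It kept 1.84 times as much as BMAL1 (1.58 to 2.13). Neither paralog passed the 2-fold rule. The ROR receptors, which activate BMAL1 through the RORE, include RORB (216 and 126 counts, ratio −0.25, −0.58 to 0.07) and RORA (46 and 38 counts, ratio 0.25, −0.41 to 0.90).

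DBP is a PAR bZIP factor and one of the most direct outputs of the CLOCK and BMAL1 pair. It had 18 counts in DMSO and 11 in THZ1, or 0.816 and 0.718 CPM. The counting interval of its log2 ratio ran from −1.41 to 0.98, which does not leave out a 2-fold lower level. Its upper bound lay at the 2-fold line and passed it with DESeq2 size factors (1.01). Its paralog TEF had 160 and 12 counts and was 8.92-fold lower, with a ratio of −3.16 (−4.19 to −2.37), further from 0 than any member. DBP kept 8.01 times as much of its level as TEF (2.78 to 23.3). HLF, the third PAR bZIP gene, had 0 counts in both libraries, under the floor of 3 counts (0.136 CPM in DMSO and 0.196 in THZ1). SPHK2, which overlaps DBP over 688 bases on the opposite strand, had 140 and 12 counts, and DBP kept 7.01 times as much as SPHK2 (2.43 to 20.4). The unknown strand setting makes the counts of DBP uncertain too.

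In ascending order of their log2 ratios the members were NR1D1, PER2, CRY2, PER1, PER3, BMAL1, DBP, NR1D2, CLOCK and CRY1. From NR1D1 to PER3 no neighbours in this order differed beyond counting error. PER3 and BMAL1 did differ (PER3 kept 0.809 times as much, 0.666 to 0.984), as did NR1D2 and CLOCK (0.893 times, 0.807 to 0.988) and CLOCK and CRY1 (0.84 times, 0.748 to 0.944). Neighbours of DBP were not separated from it. Of all 45 pairs of members, 27 had an interval that excluded 1 and 18 did not, and 9 of the 18 involve DBP. The share of such pairs among other tested genes was not computed, so these numbers do not set the members apart. The log2 ratios of all tested genes were themselves spread, with quartiles of −0.83 and 0.55. PER1, PER2, PER3, CRY2 and NR1D1 each kept less of their level than each of CRY1, CLOCK, BMAL1 and NR1D2, with an interval excluding 1 in every such pair, a division read from the values themselves, of which 4 pairs are lost when transcript GC is taken into account. It runs between the cryptochromes and between the REV-ERB genes, while the period genes all lie on the lower side. CRY1 was also separated from CLOCK and from BMAL1 (1.48 times, 1.25 to 1.75).

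**Figure D3:**
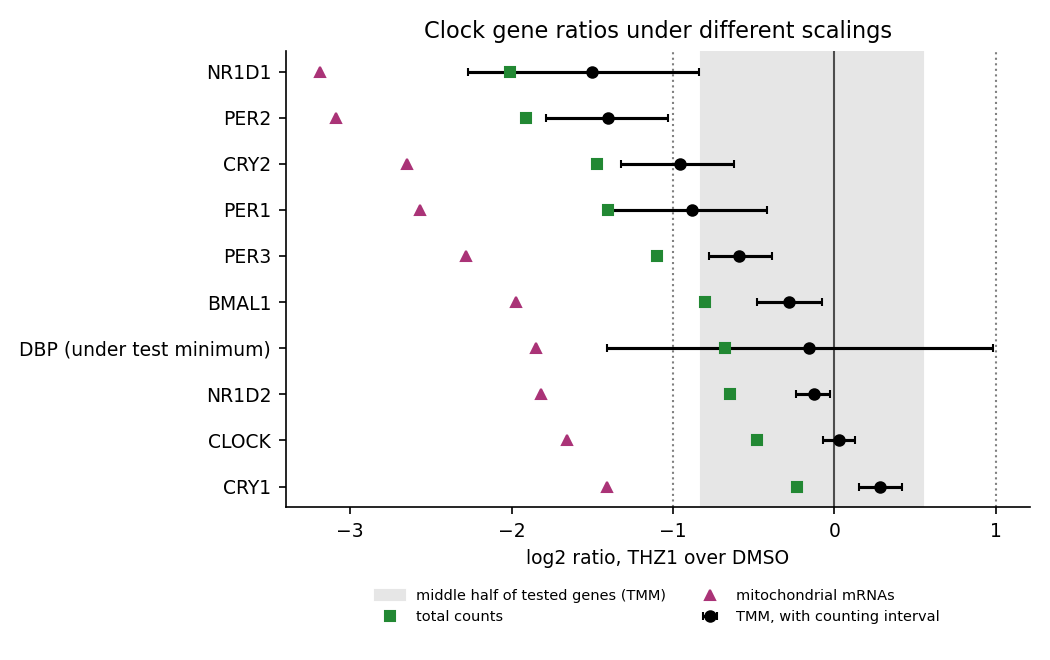
Log2 ratio of THZ1 over DMSO for each clock gene: black circles with 95% counting intervals on the TMM scale, green squares with scaling to total counts, purple triangles with scaling to mitochondrially encoded mRNAs; the grey band spans the quartiles of all tested genes (−0.83 to 0.55) and dotted lines mark 2-fold. The order of the genes is the same under each scaling, while CRY1 and CLOCK lie above 0 on the TMM scale but not on the other scalings shown.

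Levels were compared between genes per kilobase of merged exons and scaled so that the genes of each library sum to the same total, as TPM values are. That reference differs from the TMM scale, so these levels compare genes within a library and not a gene between libraries. In DMSO the order of these levels was NR1D2 (62), CRY1 (38.1), CLOCK (31), BMAL1 (16.2), PER3 (16.1), CRY2 (8.03), PER2 (7.82), NR1D1 (6.26), PER1 (3.79) and DBP (0.525). BMAL1 and PER3, CRY2 and PER2, and PER2 and NR1D1 were neighbours that did not differ beyond counting error. The order in THZ1 was the same, from 28.9 for NR1D2 and 23.7 for CRY1 down to 1.04 for PER1 and 0.236 for DBP, and there PER2 and NR1D1, and NR1D1 and PER1, were not separated. The 3 highest members were a REV-ERB gene, a cryptochrome gene and an activator gene. With the longest transcript in place of merged exons, BMAL1 stood above CLOCK in DMSO (28.2 and 25.6), and in THZ1 CRY1 stood above NR1D2 (28.4 and 24.8) and PER1 above NR1D1 (1.2 and 0.862).

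The members also differ in their gene models. On GRCh38 and GENCODE 29 the shortest are DBP (ENSG00000105516, chr19:48630030-48637438, 7.41 kb) and NR1D1 (ENSG00000126368, chr17:40092787-40100725, 7.94 kb). PER1 (ENSG00000179094, chr17:8140472-8156506) spans 16 kb, NR1D2 (ENSG00000174738, chr3:23945260-23980618) 35.4 kb, CRY2 (ENSG00000121671, chr11:45847118-45883248) 36.1 kb, PER2 (ENSG00000132326, chr2:238244038-238290102) 46.1 kb and PER3 (ENSG00000049246, chr1:7784320-7845177) 60.9 kb. The longest are CRY1 (ENSG00000008405, chr12:106991364-107093829, 102 kb), BMAL1 (ENSG00000133794, chr11:13276652-13387266, 111 kb) and CLOCK (ENSG00000134852, chr4:55427903-55547138, 119 kb). CRY1, BMAL1 and CLOCK, in the longest of 5 equal bins of span, had ratios from −0.28 to 0.28, and all genes of that bin had a median of 0.09. NR1D1 lay in the shortest bin, whose median was 0.05. The medians of the 5 bins ran from −0.17 to 0.09, and the share of genes called lower was 23% in the shortest bin, 26.7% in the next and 14.9% in the longest. The part of gene length in the members' ratios was not tested.

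The GC content of the longest transcript moved with the ratios of the members. The 4 tested members above 50.2% GC, PER2 (52.4%), CRY2 (57%), NR1D1 (59.5%) and PER1 (62.7%), had the 4 lowest ratios, and CLOCK (37.2%) and NR1D2 (38.5%) had ratios near 0. Across the 9 tested members, which share both libraries, Pearson's r was −0.75 and Spearman's rho −0.72, as a description of 9 genes. Across 12439 tested genes the values were −0.18 and −0.21, and the median ratio fell from 0.26 in the bin of lowest GC to −0.31 in the bin of highest GC. Set against the median of their own GC bin, NR1D1 was at −1.19, PER2 at −1.22, CRY2 at −0.78, PER1 at −0.58 and PER3 at −0.59, CRY1 at 0.28, BMAL1 at −0.28, NR1D2 at −0.39 and CLOCK at −0.23, below 0 where it had been at 0.03. Taking the shift between bins out of the pairs of the 9 tested members as well left 22 with an interval excluding 1 in place of 27. Of the 20 pairs across the division described above, 16 still excluded 1. That division was drawn from these same ratios, so this number is no independent support for it. CRY2 lies at the upper edge of its bin (50.2% to 57%, median −0.18), and the next bin had a median of −0.31. The values of CRY2 thus depend on where that edge falls. PER1 was no longer separated from CLOCK (0.779 times, 0.551 to 1.09), BMAL1 (0.81 times, 0.561 to 1.16) or NR1D2 (0.873 times, 0.617 to 1.22), nor PER3 from NR1D2 (0.872 times, 0.747 to 1.02). On that scale CLOCK and BMAL1 were not separated either (1.04 times, 0.89 to 1.21), nor were PER3 and NR1D1 (1.55 times, 0.941 to 2.64). PER1 was separated from PER2 by counting error alone (1.55 times, 1.01 to 2.38), with a bound close to 1. The shift between bins was taken as exact, so the intervals on that scale leave out its error and the spread of genes within a bin. The part of GC content in these differences was not tested, and these comparisons were chosen after the values were seen.

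**Figure D4:**
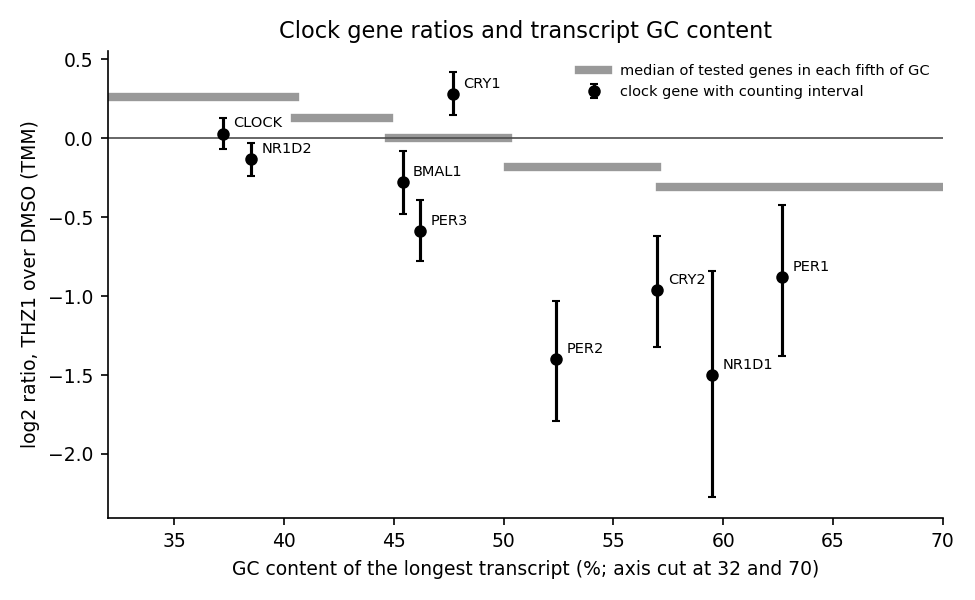
Log2 ratio of THZ1 over DMSO on the TMM scale against the GC content of the longest transcript for the 9 tested clock genes (black, with 95% counting intervals); grey bars give the median ratio of all tested genes in 5 equal bins of GC. The grey medians fall from 0.26 to −0.31, and PER2 and NR1D1 lie 1.22 and 1.19 below the medians of their bins.

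With earlier results of these data known, 64 genes of the clock pathway beyond the 10 were listed in 8 groups by role. Of these, 59 reached the minimum. By the rule 19 of them were lower (32.2%) and 3 higher, with 37 on neither side, where all tested genes gave 21.3% and 9.7%. Their median log2 ratio was −0.44, beside −0.03. The lower genes were spread over 7 of the 8 groups. TEF, described above, was the only tested gene in its group of DBP paralogs, and the 4 tested genes of the activator group were neither lower nor higher (median 0.37).

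Among 4 tested repressors outside the members (median log2 ratio −0.70), NFIL3, which competes with DBP for the D-box, was lower (161 and 39 counts, ratio −1.51, −2.06 to −1.01). CIPC, an inhibitor of CLOCK, was also lower (1013 and 251 counts, −1.49, −1.69 to −1.29). BHLHE40, an E-box repressor also known as DEC1, was higher (1230 and 1710 counts) by 2-fold, with a log2 interval of 0.89 to 1.11, a value on the line. It misses the call with upper quartile scaling, total counts or the mitochondrial reference, with 5 added to each count, and when the interval bound must reach 2-fold. Its paralog BHLHE41 had 67 and 49 counts and a ratio of 0.08 (−0.49 to 0.63), and CIART had 2 counts in each library. Repressors outside the core loop thus lay on both sides of 0.

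Kinases that phosphorylate clock proteins numbered 11, with 2 lower, 1 higher, 8 neither and a median of −0.48. DYRK1A was lower (1666 and 440 counts, −1.39, −1.55 to −1.24) and GSK3B lay just past 2-fold (1734 and 593 counts, −1.02, −1.16 to −0.89), a call that DESeq2 size factors remove. CSNK2B, the regulatory subunit of casein kinase 2, was higher (136 and 273 counts, 1.53, 1.23 to 1.84). The casein kinase 1 genes that target PER proteins for degradation, CSNK1D (−0.68) and CSNK1E (−0.48), were within 2-fold.

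Of 8 tested ubiquitin ligase and protease genes, 2 were lower and 6 were neither, with a median of −0.28. SIAH2, a ligase reported to act on NR1D1 protein, was 14.9-fold lower (310 and 14 counts, −3.90, −4.83 to −3.18), the ratio furthest from 0 in these lists. The deubiquitinase gene USP7 was within 2-fold (6357 and 3077 counts, −0.52, −0.58 to −0.46).

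Cofactors and chromatin genes had 4 lower, 1 higher and 10 neither of 15 tested, with a median of 0.10. The paralogous acetyltransferase genes EP300 (3359 and 528 counts, −2.14, −2.28 to −2.01) and CREBBP (1898 and 316 counts, −2.06, −2.24 to −1.89) were lower. SIRT1, a deacetylase that acts on BMAL1 and PER2, was lower (647 and 124 counts, −1.85, −2.15 to −1.58). The higher gene was the acetyltransferase gene KAT2B (1916 and 2967 counts, 1.16, 1.07 to 1.24), named after its value was seen; with total counts its ratio is 0.64 and the call is lost.

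Regulators through which outside signals induce the period genes had 5 lower and 5 neither of 10 tested, with a median of −0.97. MRTFA, a coactivator of SRF, was 7.93-fold lower (382 and 33 counts, −2.99, −3.57 to −2.49). The glucocorticoid receptor gene NR3C1 (2506 and 620 counts, −1.49, −1.62 to −1.36) and CREB1, whose protein binds the CRE (1820 and 457 counts, −1.47, −1.62 to −1.32), were lower as well. Among 6 output genes (median −0.91) 3 were lower, with the mitotic checkpoint kinase gene WEE1 at −2.37 (1429 and 192 counts, −2.60 to −2.15). PPARA was within 2-fold (200 and 112 counts, −0.31, −0.66 to 0.03).

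**Figure D5:**
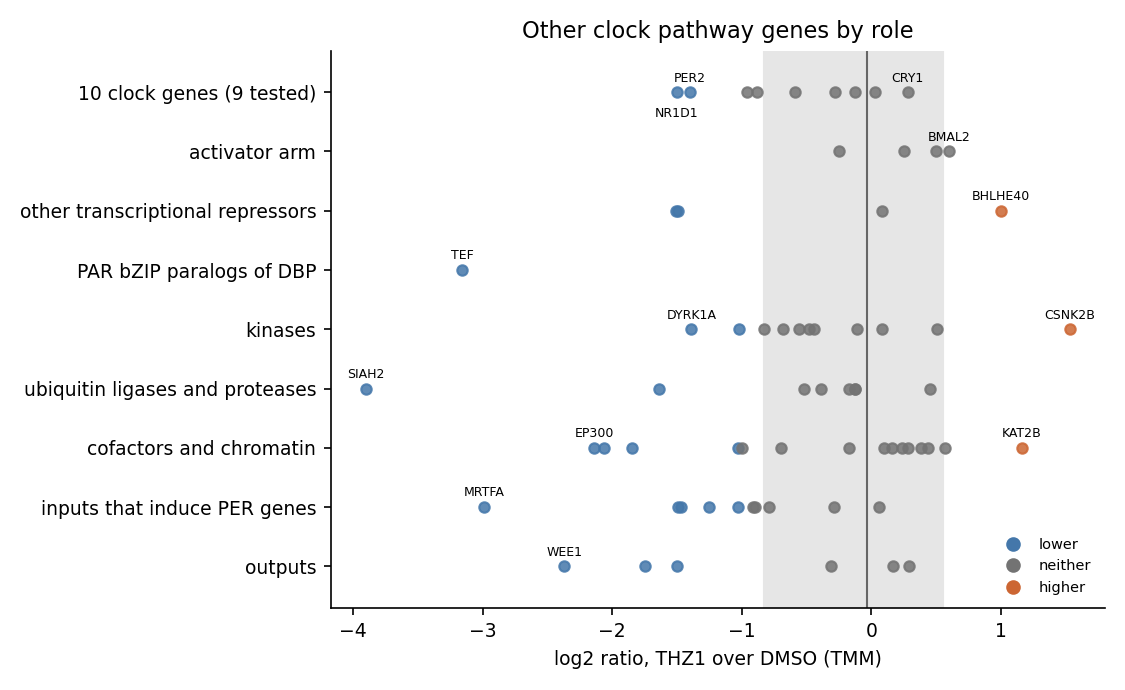
Log2 ratio of THZ1 over DMSO on the TMM scale for each tested gene of the 10 clock genes (top row) and of the 8 groups of other clock pathway genes; blue points were called lower, orange points higher and grey points neither, the grey band spans the quartiles of all tested genes and the line is their median (−0.03). The clock genes span −1.50 to 0.28, while SIAH2, TEF and MRTFA lie at −3.90, −3.16 and −2.99.

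The calls moved with the reference chosen for scaling. With total counts all ratios shift by −0.51, the median of all tested genes becomes −0.54, and 5 members are lower: NR1D1 (−2.01), PER2 (−1.91), CRY2 (−1.47), PER1 (−1.40) and PER3 (−1.10). CRY1 then turns to −0.23. With the mitochondrially encoded mRNAs as reference the shift is −1.69, the median becomes −1.72 and all 9 tested members are lower, from −3.19 for NR1D1 to −1.41 for CRY1, beside 10000 of 12457 tested genes. Of all calls, 68.7% were lower and 31.3% higher on the TMM scale, 92% and 7.95% by total counts, and 99.1% and 0.872% by the mitochondrial reference. The 3 higher pathway genes fell below 0 on that reference (CSNK2B −0.16, KAT2B −0.53 and BHLHE40 −0.69). The counts carry no information on the amount of RNA per cell, whereas the ratios between members given above do not change with scaling.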

How the data were processed

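Libraries were made from TRIzol-extracted RNA by the KAPA mRNA HyperPrep protocol, according to the labels. The authors deposited unnormalized read counts for each gene. Trimmomatic 0.38, HISAT2 2.1.0, featureCounts 1.6.0 and GRCh38 are listed in the submitters' processing notes; annotation release, strand setting and handling of multi-mapping reads: not given in the sources used here.

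Of 58884 gene IDs, 58611 were found in GENCODE 29 and 58472 matched a symbol. Effective library sizes by TMM on tested genes (edgeR 4.0.16, R 4.3.3) were 22049153 for DMSO and 15320940 for THZ1. The log2 ratio used counts with 0.5 added. Intervals came from exact 95% Clopper-Pearson limits on the part of a gene's counts found in THZ1, rescaled by effective size. Ratios between genes are exact conditional odds ratios. Without molecular identifiers, reads need not be independent molecules, and all intervals and the floor of 3 counts cover counting error only, and variation between cultures is not measured. Levels per length use merged exons. GC content is that of the longest transcript.

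All 10 members and their paralogs are named, with up to 3 genes of each list that have the ratios furthest from 0 and at least 100 counts in a library, and overlapping genes where a result turns on them; some genes that this rule selects are not reported here. The members and lists were chosen with earlier results of these data known. Counts were simulated for DMSO against THZ1, over 12260 genes. Genes to be changed were drawn from those with at least 50 expected counts in each library before the change. Changes in genes with fewer expected counts were therefore not tried. All 50 genes at each log2 ratio of −3, −2, 2 and 3 were called. So were 25 of 12060 unchanged genes (0.207%). These counts hold counting error alone, so that share leaves out variation between cultures. Changes smaller than 2 in log2 ratio were not simulated, so the run does not cover ratios like those of the tested members (−1.50 to 0.28). Other settings tried were scaling by library totals, by DESeq2 1.42.0 size factors, by upper quartile or by mitochondrially encoded mRNAs, 5 counts added, thinning to equal totals, count minimums of 1 and 100, protein-coding genes, a stricter interval rule, the longest transcript, and centring on genes of like GC content. Scripts ran in Python 3.11.15 with scipy 1.17.1, numpy 2.4.6, pandas 2.3.3 and, for figures, matplotlib 3.10.9.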

Additional observations from a re-analysis of the deposited data

How the results depend on the processing

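With total counts as scaling, 4260 of all tested genes were lower and 368 higher, 5 clock genes were lower, and 1 of the other clock pathway genes was higher. With mitochondrially encoded mRNAs as reference the counts were 10000 lower and 88 higher over all tested genes, 9 lower clock genes, and 56 lower and 0 higher pathway genes. A minimum of 1 count gave 2223 higher genes over all, a minimum of 100 left 1 lower clock gene (PER2, since NR1D1 is not tested there), and asking for an interval bound of at least 2-fold left 670 higher genes over all and 1 lower clock gene (PER2). The highest member level in DMSO was 118 times the lowest with merged exons and 44.5 times with the longest transcript. The other 49 summary values stayed within 1.5 times of the reported ones, among them the 27 separated pairs of members, 27 after thinning and 22 after centring on GC. PER2 and NR1D1 were lower under each of the 4 other scalings, with 5 counts added and after thinning. Of 69 recomputed member ratios, 20 moved outside their counting interval. The called ratios, those of PER2 and NR1D1, kept their sign. A change of scaling shifts all ratios alike, upward by 0.03 at most, so it could not turn these. The uncalled ratios of CRY1 and CLOCK fell below 0 with total counts (−0.23 and −0.48). NR1D1 and DBP rest on few counts, 22 and 11 in THZ1, which limits their precision. No library could be left out and no paired analysis was possible because each group has 1 library.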
